A study of Mus musculus with 12 samples.

Results

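The genes described here are the 5 mouse Deltex genes (Dtx1, Dtx2, Dtx3, Dtx4 and Dtx3l) together with the Notch receptors Notch1, Notch2 and Notch3, the nuclear partner of the receptors, Rbpj, and their target Hes1. They were chosen by name, with earlier results of these data known, so shares of the 10 beside those of all genes are a description. All 10 were found among the 42450 genes of the deposited table. RNA was measured in wild-type E14tg2a.4 mouse embryonic stem cells, a single established cell line, after transfection of siRNA at 50 nM. Gl2-KD cells received an siRNA against luciferase, which has no target in the mouse genome, and served as the control. Srrm2-KD cells received siRNA duplexes targeting Srrm2, which encodes a large serine and arginine rich protein of the spliceosome and of nuclear speckles. The methods list more than 1 duplex against Srrm2 and do not state which of them these libraries received. Cells were collected at 24 h, or were transfected again and collected at 72 h, so the 72 h groups differ from the 24 h groups both in time and in the number of transfections. Each of the 4 groups had 3 libraries, and these came from 3 independent experiments. Every library therefore had a Gl2-KD or Srrm2-KD partner of the same experiment and time.

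Notch receptors are single-pass membrane proteins that are activated by ligands on neighbouring cells. Binding leads to cleavage by an ADAM protease and then by gamma-secretase, and the freed intracellular part enters the nucleus, where it joins Rbpj and a Mastermind-like protein to activate genes such as Hes1. Deltex proteins are ubiquitin ligases that share a RING finger and a Deltex C-terminal domain. Dtx1, Dtx2 and Dtx4 also carry WWE domains, through which Deltex proteins bind the ankyrin repeats of Notch, whereas Dtx3 and Dtx3l lack them. Dtx3l works in a complex with Parp9 in the DNA damage and interferon responses. In embryonic stem cells Hes1 protein is known to oscillate, and Notch activity is linked to the exit from pluripotency.

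Dtx3 is the member on which most of the following turns, and its annotated transcripts differ strongly in coding content. The gene lies on the reverse strand of chromosome 10 (chr10:127190378-127195728, GRCm38) and has 6 transcripts of 346 to 1994 nt in GENCODE M21. Transcript Dtx3-201 holds 1041 coding bases. The short transcript Dtx3-205 holds 102, since it lacks a coding exon of 749 bases (chr10:127192609-127193357) and the next coding exon of 218 bases (chr10:127191336-127191553). Together these make up 92.9% of the coding bases of Dtx3-201. The sequences show where both transcripts meet: the stretch of Dtx3-201 runs from the start of the 218-base exon to its last coding base (chr10:127190967-127191553), and that of Dtx3-205 is its whole coding sequence (chr10:127190967-127193758). Capitals mark the last coding exon, 73 bases that both share and read in the same frame, and lower case marks what comes before it in each transcript.
Dtx3-201: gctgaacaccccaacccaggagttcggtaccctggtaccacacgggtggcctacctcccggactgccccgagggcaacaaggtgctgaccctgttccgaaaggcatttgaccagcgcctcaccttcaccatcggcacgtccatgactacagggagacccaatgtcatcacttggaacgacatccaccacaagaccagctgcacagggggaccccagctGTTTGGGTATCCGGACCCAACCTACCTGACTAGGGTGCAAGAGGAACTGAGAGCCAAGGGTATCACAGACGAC
Dtx3-205: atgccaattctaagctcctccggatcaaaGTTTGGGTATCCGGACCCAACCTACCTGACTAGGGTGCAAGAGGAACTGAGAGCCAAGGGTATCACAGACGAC
The deposited values are summed over each gene. A Dtx3 level below is thus the total over transcripts such as these, and the share of each was not measured here. Since Dtx3-205 is 346 nt long and the longest transcript 1994 nt, equal numbers of molecules give unequal estimated counts, and the total depends on which transcripts are present as well as on how many molecules there are.

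The libraries held 73933196 to 153343831 estimated counts each. Levels are given as CPM, the count scaled to the size of its library, after TMM scaling, which sets a common scale across libraries. The knockdown was present in each experiment. Srrm2 stood at 911, 496 and 449 CPM in experiments 1, 2 and 3 of Gl2-KD at 24 h, and at 517, 154 and 199.8 CPM in the partner Srrm2-KD libraries. At 72 h it measured 962, 479 and 442 CPM in Gl2-KD and 460.6, 182 and 217 CPM in Srrm2-KD. Its level in Srrm2-KD was 31.0% to 56.7% of the partner Gl2-KD library, although experiment 1 of Srrm2-KD lay above both other experiments of Gl2-KD at 24 h. Srrm2 fell by 1.19 on the log2 scale over both times (SE 0.10, adjusted p = 0.00254, quasi-likelihood test of edgeR, adjusted after Benjamini and Hochberg over 19410 genes). At single times its log2 fold change was -1.22 at 24 h (adjusted p = 0.0663, edgeR) and -1.16 at 72 h (adjusted p = 0.0991, edgeR). Over both times, without experiment 2 the adjusted p was 0.0899, and without experiment 3 it was 0.102. Pluripotency markers summed to 3095 to 3899 CPM in every library, against 5.16 to 26.4 CPM for fibroblast markers and 2.29 to 6.37 CPM for trophoblast markers. Neural markers summed to 33.7 to 142 CPM and primitive endoderm markers to 51.5 to 182 CPM. In such bulk libraries, fewer cells of a type that expresses a gene and less RNA of that gene in each cell cannot be told apart.

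All 10 genes were expressed and passed the filter on low counts. Per kilobase of the longest annotated transcript, the mean level over the 12 libraries was highest for Rbpj, the DNA-binding factor of the pathway, at 69.6 CPM per kb. Dtx3 followed at 31.8 CPM per kb, which made it the most abundant of the Deltex genes on this scale. Next came Hes1 with 16.2 and Dtx1 with 14.2 CPM per kb. Notch3, Dtx2 and Notch1 lay close together, with 5.86, 5.72 and 5.10 CPM per kb, and Notch2, Dtx3l and Dtx4 were lowest, with 2.34, 1.86 and 1.27 CPM per kb. Some neighbours in this order were separated in nearly every library and others were not. Dtx3 exceeded Hes1, and Notch1 exceeded Notch2, in 12 of 12 libraries, whereas Rbpj exceeded Dtx3, and Dtx1 exceeded Notch3, in 11. Hes1 lay above Dtx1 in 9 libraries, and Dtx2 above Notch1, Notch2 above Dtx3l and Dtx3l above Dtx4 in 8 each. Notch3 lay above Dtx2 in 5 libraries only, so this pair was not ordered. The order by mean was the same when levels were divided by the length of all annotated exons of a gene.

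**Figure D1:**
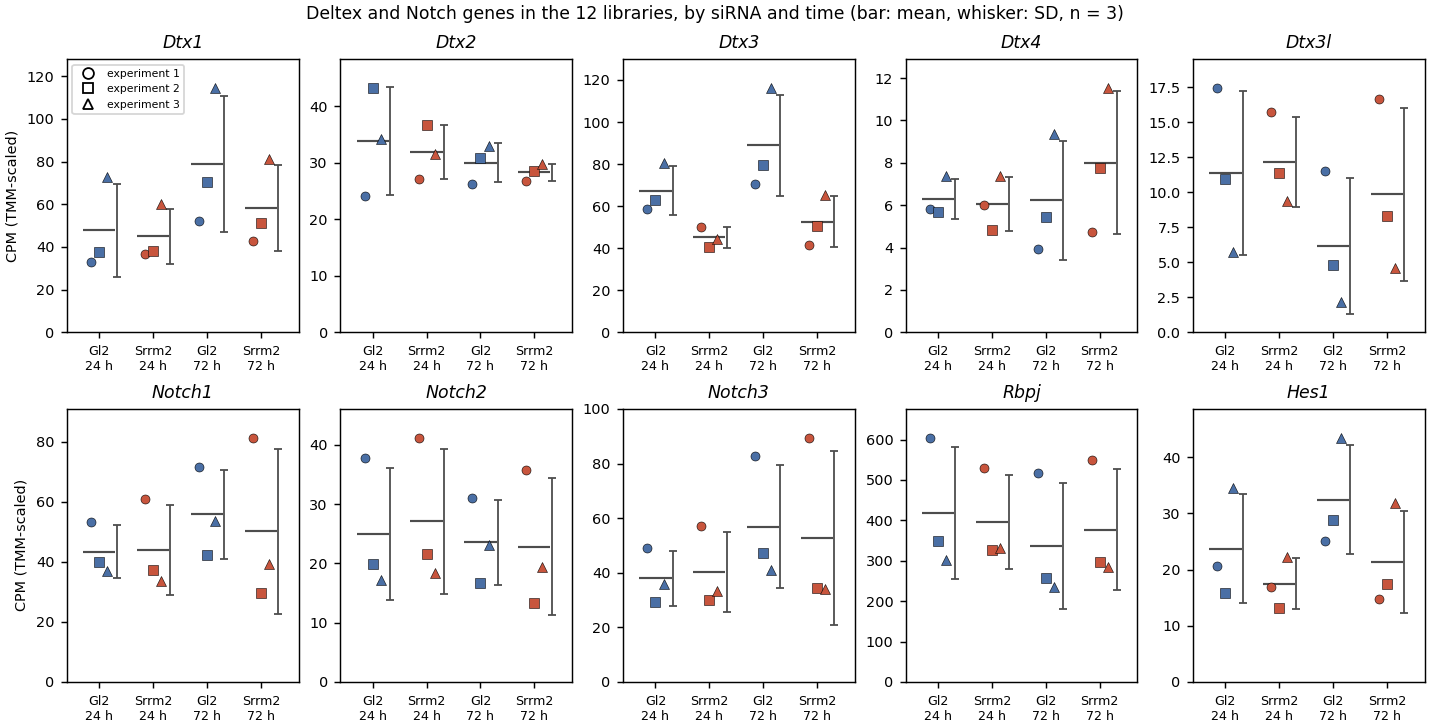
Level of each Deltex and Notch gene in CPM (vertical axes, linear, from 0) in the 12 libraries, grouped by siRNA and time, with the symbol showing the experiment, a horizontal bar for the group mean and a whisker for the SD (n = 3). Dtx3 is the gene whose Srrm2-KD libraries all lie below the Gl2-KD libraries at both times, while Notch2, Notch3 and Rbpj are higher in experiment 1 than in the others in every group.

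The first comparison asked how the Deltex and Notch genes differed between Srrm2-KD and Gl2-KD. Dtx3 was lower in Srrm2-KD in every experiment at both times, and Hes1 was too, although neither passed the adjusted threshold in the fit over all genes. At 72 h Dtx1 was also lower and Dtx3l higher in every experiment. At 24 h, 0 of the 10 genes were called at an adjusted p below 0.05, as for all 19410 genes tested (0%). At an unadjusted p below 0.05, 2 of the 10 were found, both lower, against 2.62% of all genes in either direction and 1.47% lower. At 72 h, 0 of the 10 were called (0% of all genes), and 4 of the 10 had an unadjusted p below 0.05, 1 higher and 3 lower, against 12.9% of all genes (5.01% higher and 7.86% lower). In the mean over both times, 0 of the 10 were called against 0.067% of all genes, and 4 of the 10 had an unadjusted p below 0.05, 1 higher and 3 lower, against 13.6% (5.72% higher and 7.85% lower). A single direction in all 3 experiments was found for 3 of the 10 genes at 24 h, against 32.7% of all genes, and for 6 at 72 h, against 41.9%. DESeq2 and limma-voom called 0 of the 10 at 24 h, where they called 0.124% and 0.0103% of all genes. At 72 h limma-voom called 0, against 0.0206% of all genes, and DESeq2 called 4, which were Dtx1, Dtx3, Hes1 and Dtx3l, against 2.76%. Over both times limma-voom called 1 of the 10, against 0.474% of all genes, and DESeq2 called 2, against 3.78%. The median log2 fold change of the 10 genes was -0.04 at 24 h and -0.16 at 72 h, beside 0.01 and -0.02 for all genes.

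Dtx3, a Deltex ligase without WWE domains, measured 58.7, 62.7 and 80.6 CPM in experiments 1, 2 and 3 of Gl2-KD at 24 h and 50.3, 40.5 and 44.6 CPM in Srrm2-KD. At 72 h it measured 70.7, 79.8 and 116 CPM in Gl2-KD and 41.5, 50.8 and 65.5 CPM in Srrm2-KD. At neither time did the groups overlap, which held for 3.44% of all genes at 24 h and for 6.66% at 72 h. Each Srrm2-KD library stood at 55.4% to 85.8% of its Gl2-KD partner, and the value nearest to the control came from experiment 1 at 24 h. The log2 fold change was -0.55 at 24 h (SE 0.15, adjusted p = 1, edgeR) and -0.75 at 72 h (SE 0.15, adjusted p = 0.124, edgeR). Over both times it was -0.65 (SE 0.10, adjusted p = 0.0511, edgeR), with a lower level in 6 of 6 pairs. A direction that held in every pair was seen for 14.3% of all genes. The difference of -0.20 between the effects at 72 h and at 24 h had an SE of 0.21 and a 95% interval of -0.66 to 0.26. The value over both times lay next to the threshold, and its adjusted p ran from 4.85e-06 to 0.957 over the alternatives run. It passed in 10 of the 23 alternatives. In fits to all 12 libraries it passed with DESeq2, limma-voom, RLE factors, no filter on low counts, a stricter filter and legacy=FALSE. Without the experiment block it did not pass. It did not pass without experiment 2 (-0.66, adjusted p = 0.881, edgeR) or without experiment 3 (-0.56, adjusted p = 0.335, edgeR). It passed without experiment 1 (-0.74, adjusted p = 0.0192, edgeR), without the experiment 1 library of Srrm2-KD at 24 h (adjusted p = 0.00171) or of Gl2-KD at 72 h (adjusted p = 0.0489) and in an alternative fit that gave every pair of libraries its own block (-0.66, adjusted p = 0.01, edgeR). That fit called 3.73% of all genes at 72 h and 5.79% over both times, and it also took the 72 h value of Dtx3 past the threshold (-0.75, adjusted p = 0.0242, edgeR), as did leaving out the Srrm2-KD library of experiment 1 (adjusted p = 0.0160) or 3 (adjusted p = 0.0479) at 24 h. The 72 h value of Dtx3 passed in 6 of the 24 alternatives.

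Hes1, a transcriptional repressor and a direct target of Notch, had levels of 20.7, 15.9 and 34.6 CPM in Gl2-KD at 24 h and of 16.9, 13.2 and 22.2 CPM in Srrm2-KD. At 72 h these were 25.0, 28.8 and 43.4 CPM in Gl2-KD and 14.8, 17.5 and 31.8 CPM in Srrm2-KD. Groups overlapped at both times, and experiment 3 was the highest of each group. Within each experiment the Srrm2-KD library was the lower one, at 59.1% to 83.3% of its partner. For Hes1 the log2 fold change was -0.39 at 24 h (SE 0.15, adjusted p = 1, edgeR), -0.64 at 72 h (SE 0.15, adjusted p = 0.153, edgeR) and -0.52 over both times (SE 0.11, adjusted p = 0.0887, edgeR). With a block per pair the adjusted p was 0.0242 at 72 h and 0.0107 over both times, whereas it was 0.881 without experiment 2 and 0.484 without experiment 3 over both times. Hes1 passed in 3 of the 24 alternatives at 72 h and in 4 of the 23 over both times. Marker sums at 72 h are given for both siRNAs, since Dtx3 and Hes1 each lay farther from 0 at that time than at 24 h. Pluripotency markers summed to 3095 to 3323 CPM in Srrm2-KD and to 3383 to 3591 CPM in Gl2-KD. These sums did not overlap, as was so for 6.66% of single genes. At 72 h 5 of 6 were lower, with a median log2 fold change of -0.14, and 5 of 6 were lower at 24 h too. Primitive endoderm sums overlapped, at 51.5 to 95.5 CPM in Srrm2-KD and 66.2 to 146 CPM in Gl2-KD. Of these markers 3 of 5 were lower, with a median of -0.50. The medians of the other lists at 72 h were -0.84 for fibroblast, -0.10 for neural, 0.03 for primitive streak and mesoderm and 0.19 for trophoblast markers. The part of the markers in the values of Dtx3 and Hes1 was not tested.

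Dtx1 encodes a Deltex ligase of the kind that binds Notch through WWE domains. At 24 h its level was 32.8, 37.8 and 72.6 CPM in Gl2-KD and 36.6, 38.3 and 60.0 CPM in Srrm2-KD, and neither group lay above the other. After 72 h Dtx1 stood at 52.1, 70.4 and 114 CPM in Gl2-KD and at 42.8, 51.2 and 81.1 CPM in Srrm2-KD. Again experiment 3 was highest in both groups and the groups overlapped, but each Srrm2-KD library was below its partner, at 71.0% to 82.2%. The log2 fold change of Dtx1 was -0.03 at 24 h (SE 0.10, 95% interval -0.26 to 0.20) and -0.41 at 72 h (SE 0.10, adjusted p = 0.163, edgeR). The effect at 72 h minus that at 24 h was -0.38 (SE 0.15, adjusted p = 1, edgeR). In that comparison 0 of the 10 genes and 0 of all genes were called (0%), DESeq2 called 0 of the 10 and 2 of all genes (0.0103%), and limma-voom called 0 of either. Dtx1 was the 1 gene of the 10 with an unadjusted p below 0.05, against 1.64% of all genes (0.979% lower). With a block per pair, Dtx1 passed the threshold at 72 h (-0.41, adjusted p = 0.0427, edgeR).

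Dtx3l, the partner of Parp9, went the other way. Its levels were low, at 17.4, 10.9 and 5.74 CPM in Gl2-KD and 15.7, 11.4 and 9.38 CPM in Srrm2-KD at 24 h. The later libraries held 11.5, 4.78 and 2.13 CPM in Gl2-KD and 16.6, 8.30 and 4.597 CPM in Srrm2-KD. Experiment 1 was highest and experiment 3 lowest in every group, so that the groups overlapped, while at 72 h the Srrm2-KD library was 144% to 216% of its partner. The log2 fold change of Dtx3l was 0.25 at 24 h (SE 0.24) and 0.78 at 72 h (SE 0.25, adjusted p = 0.244, edgeR). At 72 h it passed with a block per pair (0.80, adjusted p = 0.0401, edgeR), as it did over both times in that fit (0.50, adjusted p = 0.0434, edgeR). Dtx3l (chr16:35926511-35939151) and Parp9 (chr16:35938470-35972605) start head to head on opposite strands, and 458 exonic bases of Dtx3l overlap exons of Parp9. It is not stated in the sources used here whether the counting used the strand, so reads from the overlap cannot be told apart.

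Dtx2 and Dtx4, the remaining WWE-bearing ligases, had 0 calls in any of the 6 comparisons by edgeR. Dtx2 spanned 24.1 to 43.2 CPM in Gl2-KD and 26.8 to 36.7 CPM in Srrm2-KD over both times, and its log2 fold change was -0.07 at 24 h (95% interval -0.36 to 0.22) and -0.08 at 72 h (95% interval -0.37 to 0.21). Dtx4 lay at 3.92 to 9.34 CPM in Gl2-KD and 4.75 to 11.5 CPM in Srrm2-KD. Its log2 fold change was -0.05 at 24 h (SE 0.22) and 0.37 at 72 h (SE 0.22, 95% interval -0.12 to 0.86, higher in 3 of 3 experiments). The Deltex genes thus lay on both sides of 0 at 72 h, with the largest distance, from Dtx3 to Dtx3l, running from -0.75 to 0.78.

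Among the receptors, Notch1 measured 53.4, 39.8 and 37.0 CPM in Gl2-KD and 61.1, 37.3 and 33.6 CPM in Srrm2-KD at 24 h. Notch1 at 72 h stood at 71.6, 42.3 and 53.6 CPM in Gl2-KD and 81.3, 29.8 and 39.4 CPM in Srrm2-KD. Experiment 1 was highest in every group and moved up in Srrm2-KD, whereas experiments 2 and 3 moved down, and the log2 fold change of Notch1 was -0.02 at 24 h and -0.24 at 72 h (95% interval -0.60 to 0.13). Notch3 at 72 h stood at 82.7, 47.2 and 40.8 CPM in Gl2-KD and at 89.4, 34.5 and 34.2 CPM in Srrm2-KD, with a log2 fold change of -0.19 (95% interval -0.52 to 0.15). With 1 library or experiment left out, the 72 h value ran from -0.48 to -0.065 for Notch1 and from -0.42 to -0.061 for Notch3. The ends for Notch1 came without the Srrm2-KD library of experiment 1 and without that of experiment 2, and those for Notch3 without the same library of experiment 1 and without experiment 2 as a whole. At 24 h the log2 fold change was 0.04 for Notch3 and 0.12 for Notch2. Notch2 was then higher in each Srrm2-KD library than in its partner, at 107.6% to 109.2%, while the groups overlapped. Notch2 was at 31.0, 16.6 and 23.2 CPM in Gl2-KD and at 35.7, 13.3 and 19.4 CPM in Srrm2-KD at 72 h, with a log2 fold change of -0.13 (95% interval -0.50 to 0.25). All 3 receptors were thus higher in experiment 1 and lower in experiments 2 and 3 of Srrm2-KD at 72 h. Exons of each receptor gene overlap exons of another annotated gene, over 414 bases with Gm13568 and 1068 bases with 0610009E02Rik for Notch1, 541 bases with Gm42820 for Notch2 and 488 bases with Gm17276 for Notch3. How reads from these stretches were assigned is not stated in the sources used here.

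Rbpj, the factor through which all Notch receptors act on DNA, was the most abundant member, with 604, 348 and 302 CPM in Gl2-KD and 529, 326 and 331 CPM in Srrm2-KD at 24 h. The 72 h libraries held 517, 258 and 235 CPM in Gl2-KD and 550, 296 and 285 CPM in Srrm2-KD. It was higher in each Srrm2-KD library than in its partner at 72 h, at 106% to 121%, but the groups overlapped. For Rbpj the log2 fold change was -0.05 at 24 h (SE 0.09) and 0.19 at 72 h (SE 0.09, 95% interval -0.02 to 0.40, adjusted p = 0.446, edgeR).

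**Figure D2:**
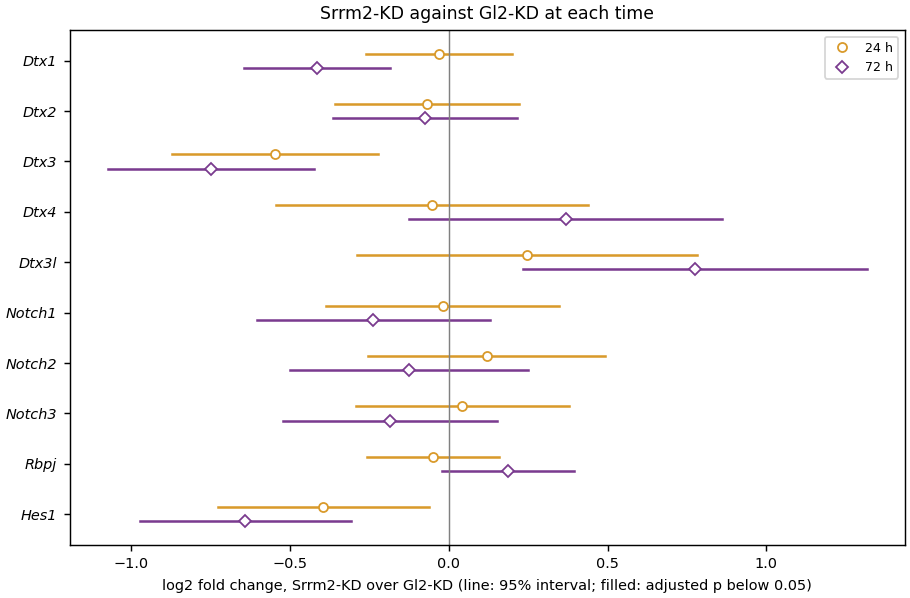
Log2 fold change of Srrm2-KD over Gl2-KD (horizontal axis) for each gene at 24 h (circles) and 72 h (diamonds), with lines for the 95% interval; no symbol is filled, since no gene had an adjusted p below 0.05. Dtx3 and Hes1 lie below 0 at both times, at -0.75 and -0.64 at 72 h, and Dtx3l lies at 0.78 at 72 h.

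The second comparison asked how the genes differed between 72 h and 24 h within each siRNA. In Gl2-KD cells Dtx1 rose, and it was the only 1 of the 10 genes that was called, against 1.45% of all genes. At an unadjusted p below 0.05 there were 6 of the 10, of which Dtx1, Dtx3, Notch3 and Hes1 were higher and Dtx3l and Rbpj lower at 72 h, against 16.8% of all genes (9.59% higher and 7.21% lower). DESeq2 called 5 of the 10, against 6.69% of all genes, and limma-voom called 2, against 2.48%. The direction was the same in all 3 experiments for 7 of the 10, against 36.5% of all genes. In Srrm2-KD cells 0 of the 10 were called, against 0.551% of all genes, and 1 of the 10, Dtx1, had an unadjusted p below 0.05, against 16.3% (7.72% higher). In Srrm2-KD the direction was the same in all 3 experiments for 3 of the 10, against 32.8% of all genes. DESeq2 called 1 of the 10 in Srrm2-KD, which was Dtx1, against 5.43% of all genes, and limma-voom called 0, against 1.33%.

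Dtx1 went from 32.8 to 52.1 CPM in experiment 1, from 37.8 to 70.4 CPM in experiment 2 and from 72.6 to 114 CPM in experiment 3 of Gl2-KD. The log2 fold change was 0.74 (SE 0.11, adjusted p = 0.0135, edgeR), which is 167% of the 24 h level. The groups overlapped, since the 24 h library of experiment 3 exceeded the 72 h libraries of experiments 1 and 2. This call was lost without experiment 2 (0.64, adjusted p = 0.521, edgeR), without experiment 3 (0.78, adjusted p = 0.0551, edgeR) and in the fit without the experiment block (0.73, adjusted p = 1, edgeR). It was also lost without the 24 h library of experiment 1 (adjusted p = 0.0873) or 2 (adjusted p = 0.126), and without the 72 h library of experiment 2 (adjusted p = 0.105) or 3 (adjusted p = 0.0543). In Srrm2-KD the Dtx1 value was 0.36 (SE 0.10, adjusted p = 0.140, edgeR), and it was higher at 72 h in 3 of 3 experiments there as well.

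Dtx3l was lower at 72 h than at 24 h in every experiment of Gl2-KD, with a log2 fold change of -1.04 (SE 0.25, adjusted p = 0.0642, edgeR), or 48.8% of the 24 h level. It did not pass without experiment 2 (-0.98, adjusted p = 0.660, edgeR) or without experiment 3 (-0.89, adjusted p = 0.136, edgeR). It passed the threshold without experiment 1 (-1.30, adjusted p = 0.0431, edgeR), without the 72 h library of experiment 1 in Gl2-KD (adjusted p = 0.0402) and without the 24 h library of experiment 1 (adjusted p = 0.0297) or 3 (adjusted p = 0.0279) in Srrm2-KD. In fits to all 12 libraries it passed with DESeq2, limma-voom, no filter on low counts, a stricter filter and legacy=FALSE. With RLE factors or without the experiment block it did not pass. Dtx3l thus passed in 9 of the 22 alternatives. In Srrm2-KD its value was -0.51 (SE 0.25, 95% interval -1.05 to 0.03), and experiment 1 was higher at 72 h. Notch3 measured 49.0, 29.2 and 35.7 CPM at 24 h and 82.7, 47.2 and 40.8 CPM at 72 h of Gl2-KD. It was higher at 72 h in 3 of 3 experiments, most in experiments 1 and 2, with a log2 fold change of 0.54 (SE 0.15, adjusted p = 0.107, edgeR) in Gl2-KD and of 0.31 (SE 0.15, adjusted p = 0.349, edgeR) in Srrm2-KD.

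For Hes1 the same values were 0.49 (SE 0.15, adjusted p = 0.135, edgeR) in Gl2-KD and 0.24 (SE 0.15) in Srrm2-KD, and for Dtx3 0.39 (SE 0.15, adjusted p = 0.210, edgeR) and 0.18 (SE 0.15). Rbpj stood at -0.34 (SE 0.09, adjusted p = 0.103, edgeR) in Gl2-KD, lower in 3 of 3 experiments, and at -0.10 (SE 0.09) in Srrm2-KD. The difference between the values in Srrm2-KD and in Gl2-KD is the same quantity as the effect of the knockdown at 72 h minus that at 24 h, which was called for 0 of the 10 genes. The comparison over time in Gl2-KD and the comparison at 72 h use the same 3 Gl2-KD libraries, with opposite signs. For this reason their values are given side by side and no likeness between them is counted.

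**Figure D3:**
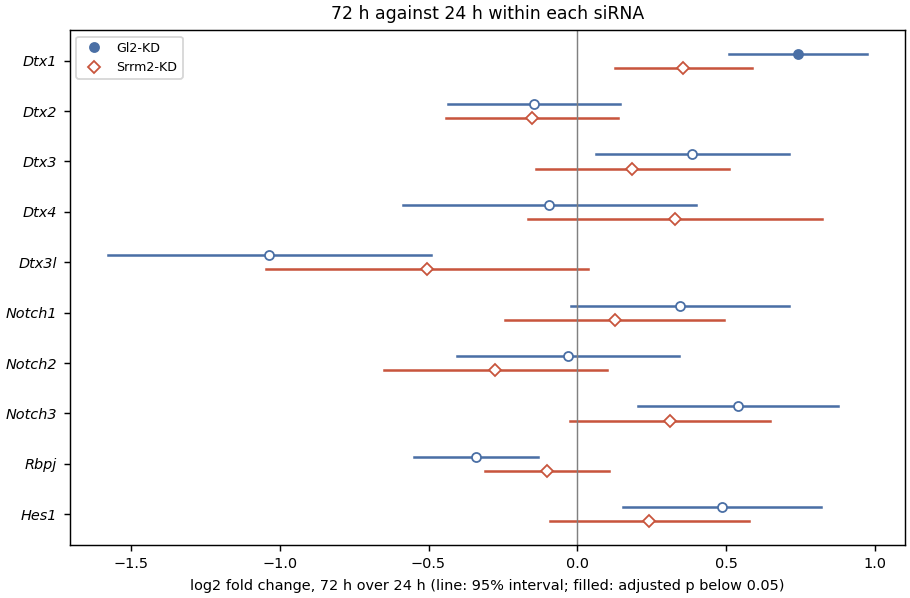
Log2 fold change of 72 h over 24 h (horizontal axis) for each gene in Gl2-KD (blue circles) and in Srrm2-KD (red diamonds), with lines for the 95% interval and a filled symbol for an adjusted p below 0.05. Dtx1 in Gl2-KD, at 0.74, carries the only filled symbol, and Dtx3l in Gl2-KD lies farthest from 0, at -1.04.

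Independent experiments differed in several of these genes by more than the siRNA did. This is given as a description, with no test, since experiment was not a condition of the study. Experiment 1 held 516.9 to 604 CPM of Rbpj, and experiments 2 and 3 held 235 to 348 CPM. For Dtx3l the ranges were 11.5 to 17.4 and 2.13 to 11.4 CPM, for Notch2 31.0 to 41.2 and 13.3 to 23.2 CPM, and for Notch3 49.0 to 89.4 and 29.2 to 47.2 CPM. Dtx2 went the other way, with 24.1 to 27.2 CPM in experiment 1 and 28.6 to 43.2 CPM in the others. For these 5 of the 10 genes the 4 libraries of experiment 1 did not overlap the 8 other libraries, which held for 30.5% of all genes. On the log2 scale the mean of experiment 1 differed from that of the others by 1.25 for Dtx3l, 0.97 for Notch2, 0.94 for Notch3, 0.89 for Rbpj and 0.77 for Notch1. It differed by -0.61 for Dtx1, -0.50 for Dtx4, -0.34 for Hes1 and -0.24 for Dtx3. Srrm2 itself differed by 1.196. The study names the day of RNA processing as a source of variation, but the labels do not give it per library, so experiment and processing day cannot be told apart here.

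**Figure D4:**
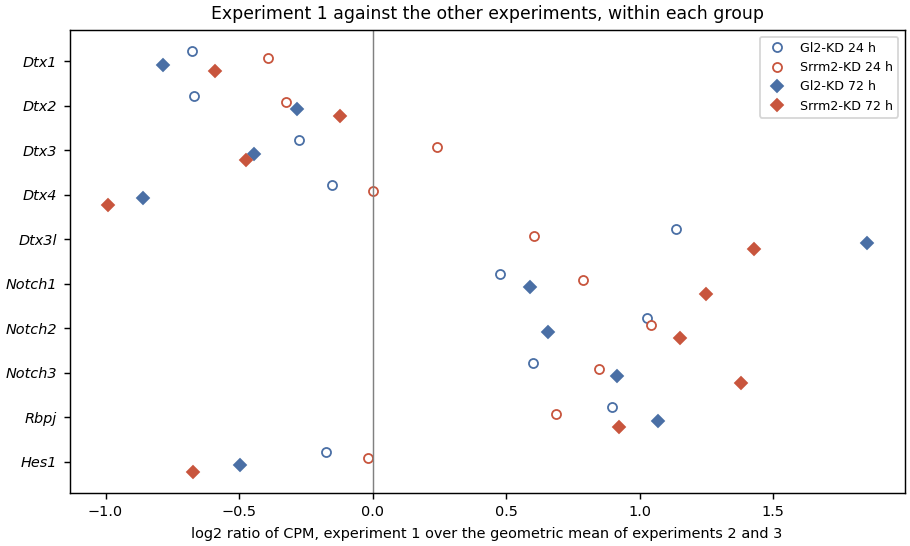
Log2 ratio of the CPM in experiment 1 to the geometric mean of experiments 2 and 3 (horizontal axis) for each gene, with 1 point for each of the 4 groups (blue for Gl2-KD, red for Srrm2-KD, open circles for 24 h, filled diamonds for 72 h). All 4 points lie above 0 for Dtx3l, Notch1, Notch2, Notch3 and Rbpj and below 0 for Dtx1, Dtx2 and Hes1.

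Around the 10 genes, 55 other genes of the pathway were taken from lists of ligands, the remaining receptor Notch4, receptor maturation and cleavage, ubiquitin ligases and endocytosis, nuclear cofactors and targets. Of these, 53 passed the filter on low counts. At 24 h, at 72 h and over both times, 0 of the 53 were called between Srrm2-KD and Gl2-KD. Of all genes, 0%, 0% and 0.067% were called. At an unadjusted p below 0.05, 1 was higher and 0 were lower at 24 h, where 2.62% of all genes passed (1.15% higher and 1.47% lower), and 2 were higher and 6 lower at 72 h, where 5.01% of all genes were higher and 7.86% lower. The median log2 fold change of the 53 was -0.03 at 24 h and -0.08 at 72 h. By role, the medians at 72 h were -0.09 for 8 ligands, -0.16 for 14 genes of receptor maturation and cleavage and -0.08 for 10 ubiquitin ligases and endocytic adaptors. They were -0.07 for 15 nuclear cofactors and 0.06 for 5 targets. Notch4, alone in its list, had -0.44 at 72 h, without 1 direction in all 3 experiments, and -0.38 over both times. In the genes of receptor maturation and cleavage, 11 of 14 had a value below 0 at 72 h, but only 2 of the 14 had an unadjusted p below 0.05, both lower.

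Maml2, a Mastermind-like coactivator that binds the complex of Notch and Rbpj, had the smallest p of the 53 at 72 h. It measured 4.64, 2.28 and 1.27 CPM in Gl2-KD and 5.24, 3.40 and 2.90 CPM in Srrm2-KD at 24 h. At 72 h it measured 3.51, 1.502 and 0.936 CPM in Gl2-KD and 6.36, 4.28 and 2.67 CPM in Srrm2-KD. Its level was higher in Srrm2-KD in 6 of 6 pairs, while experiment 1 was highest in each group and the groups overlapped. Maml2 was named by a rule that asked for 1 direction in every experiment, so the count of pairs follows from the choice. The log2 fold change of Maml2 was 0.65 at 24 h (SE 0.23, adjusted p = 1, edgeR), 1.28 at 72 h (SE 0.23, adjusted p = 0.124, edgeR) and 0.97 over both times (SE 0.16, adjusted p = 0.0545, edgeR). With a block per pair the adjusted p was 0.0271 at 72 h and 0.0154 over both times. At 24 h the value was 0.37 without experiment 3. Over both times it was 0.92 without experiment 2 (adjusted p = 0.881, edgeR) and 0.77 without experiment 3 (adjusted p = 0.408, edgeR). Without experiment 1 the value over both times was 1.197 (adjusted p = 0.0447, edgeR), and without the Srrm2-KD library of experiment 1 at 24 h it was 1.06 (adjusted p = 0.0165, edgeR). The 72 h value passed without the Srrm2-KD library of experiment 3 at 24 h (1.27, adjusted p = 0.0479, edgeR). Counting every alternative run, Maml2 passed in 8 of 23 over both times and in 4 of 24 at 72 h.

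Parp9, the binding partner of Dtx3l, was the only 1 of the 53 that edgeR called in any of the 6 comparisons in the fit over all genes. It was called over time in Gl2-KD, where 1.45% of all genes were. In Gl2-KD it fell from 13.8, 12.4 and 7.22 CPM at 24 h to 8.75, 5.69 and 4.02 CPM at 72 h. The log2 fold change was -0.87 (SE 0.18, adjusted p = 0.0410, edgeR), and this call was lost in the fit without the experiment block (-0.86, adjusted p = 1) and without experiment 2 (-0.76, adjusted p = 0.607) or 3 (-0.88, adjusted p = 0.120). It was also lost, with an adjusted p of 0.0546 to 0.230, without any single Gl2-KD library other than that of experiment 1 at 72 h, without any single Srrm2-KD library at 72 h, and without that of experiment 2 at 24 h. In Srrm2-KD Parp9 measured 13.4, 14.6 and 11.3 CPM at 24 h and 12.1, 11.3 and 6.59 CPM at 72 h. Between the siRNAs at 72 h it had a log2 fold change of 0.71 (SE 0.18, adjusted p = 0.155, edgeR) and was higher in 3 of 3 experiments. With a block per pair that value passed the threshold (0.72, adjusted p = 0.0380, edgeR).

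Other pathway genes gave values that did not pass the adjusted threshold. They were named by a rule that asked for 1 direction in every experiment of a comparison, so such counts follow from the choice. Dner, a neuronal membrane protein reported as a Notch ligand, had a log2 fold change of -1.07 at 72 h (SE 0.35, adjusted p = 0.263, edgeR) and -0.74 over both times, lower in 6 of 6 pairs. Lfng, a glycosyltransferase that modifies Notch receptors, had -0.54 at 72 h (SE 0.20, adjusted p = 0.299, edgeR), lower in 3 of 3 experiments. Nrarp, a Notch target that feeds back on the pathway, had 0.36 at 24 h and the ligand Jag1 had 0.28, each higher in 3 of 3 experiments. The values over both times were 0.14 for Snw1, a cofactor of Rbpj and of the spliceosome, and -0.12 for Poglut1, which glucosylates Notch receptors. Adam10, the protease of the first cleavage, had a difference of -0.23 between the effects at 72 h and 24 h. Over time, Hey2, a target related to Hes1, was at 0.54, 0.63 and 0.75 CPM at 24 h and at 1.74, 1.52 and 1.27 CPM at 72 h in Gl2-KD. These groups did not overlap, which held for 7.27% of all genes, and the log2 fold change of Hey2 was 1.22 (SE 0.28, adjusted p = 0.0580, edgeR) in Gl2-KD and 1.30 (SE 0.28, adjusted p = 0.0728, edgeR) in Srrm2-KD. Dll4, a Notch ligand, stayed below 1 CPM in every library and had a log2 fold change of 1.26 (SE 0.33, adjusted p = 0.0889, edgeR) over time in Gl2-KD and of 0.56 (SE 0.34) at 24 h between the siRNAs. Hdac1, a histone deacetylase of corepressor complexes, had -0.28 in Gl2-KD and -0.27 in Srrm2-KD over time, and Spen, a corepressor bound by Rbpj, had -0.37 in Srrm2-KD.

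**Figure D5:**
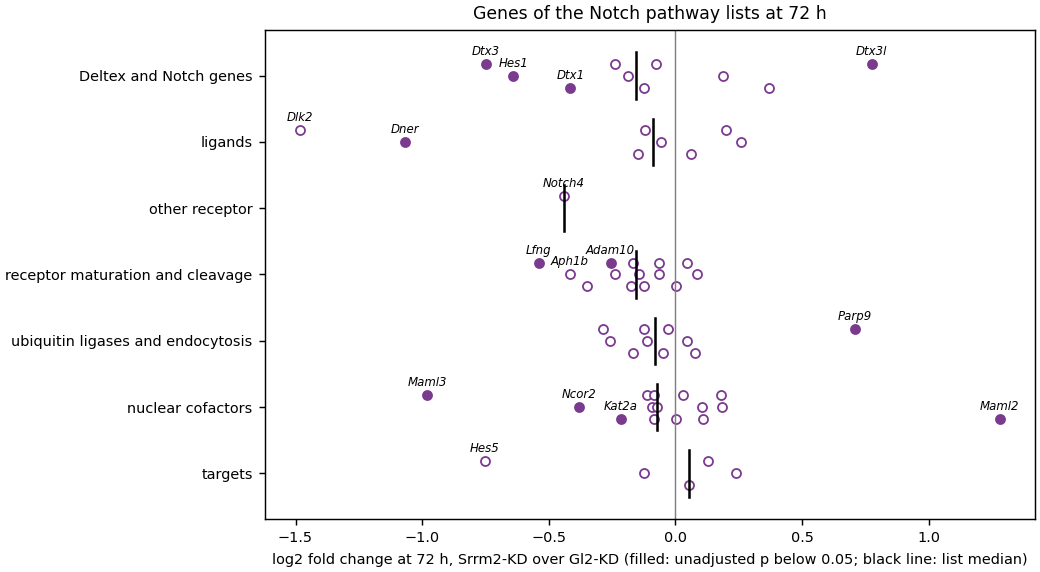
Log2 fold change of Srrm2-KD over Gl2-KD at 72 h (horizontal axis) for the 10 Deltex and Notch genes and the 53 other pathway genes by role, with filled points for an unadjusted p below 0.05 and a black line for the median of each list. Maml2 at 1.28 and Parp9 at 0.71 lie on the side of Dtx3l, while Dner at -1.07 and Lfng at -0.54 lie on the side of Dtx3; points are spread vertically for legibility only.

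The genes whose levels ran most like those of Dtx3 over the 12 libraries, after the mean of each experiment was removed, were Wbp1 (Pearson r = 0.987), Syngr1 (0.984), Tbc1d1 (0.982), Cox6b2 (0.978) and Ppox (0.978). These correlations are a description, since the libraries share the siRNA and the time. The direction of these genes between the siRNAs follows in part from this choice. As a description, their log2 fold changes at 72 h were -0.57 for Wbp1, -0.62 for Syngr1, -0.43 for Tbc1d1, -1.64 for Cox6b2 and -0.85 for Ppox.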

How the data were processed

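PolyA RNA was sequenced from 12 libraries of 4 groups (stranded kit, 100-base paired-end reads). The authors quantified reads with Kallisto 0.46.1 (version per the submitters' processing notes) against GENCODE M24 (mm10), and deposited estimated counts per gene. These are expected counts, and 33.8% to 43.0% of values were not whole. How transcripts were summed and whether the strand was used are not stated in the sources used here. Symbols and positions came from GENCODE M21 on GRCm38, and 42156 of 42450 gene identifiers matched.

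Counts were rounded, and genes were kept by filterByExpr (minimum count 10, total 15). All 12 libraries were fitted with edgeR 4.0.16 in R 4.3.3 (TMM, glmQLFit with legacy=TRUE, glmQLFTest) with 4 group terms and experiment as a block, in place of the RNA processing day that the study used. Called means an adjusted p below 0.05 (Benjamini-Hochberg over all genes). SEs are derived from the F statistics, and intervals are 95%. The fit left 6 residual degrees of freedom, and its common biological coefficient of variation came to 0.22. Libraries of the same experiment number deviated together (correlations of deviations from group means 0.281 to 0.747 over 18 pairs, against -0.628 to 0.231 over 36 others), and the labels name independent experiments, so the numbers pair the samples.

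Alternatives were DESeq2 1.42.0, limma-voom (limma 3.58.1), RLE factors, other filters and blocks, each time fitted alone, legacy=FALSE, and leaving out each library or experiment. Scripts were tested on simulated data. The genes and lists were chosen with earlier results of these data known. The text names Srrm2, the 10 genes, pathway genes called in any comparison, the 4 pathway genes with the smallest p and 1 direction in all 3 experiments per comparison, and the 5 genes most like Dtx3. Notch4 is named as the only gene of its list.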

Additional observations from a re-analysis of the deposited data

How the results depend on the processing

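With 3 experiments and 6 residual degrees of freedom, the calls changed between the alternatives, while the log2 fold changes of Dtx3 and Hes1 between the siRNAs kept their sign at each time under every alternative run. The cause of changed calls was not tested. For all genes, the calls at 24 h numbered 24 with DESeq2, 2 with limma-voom and 1 each without the filter, with the stricter filter (10 counts or more in every library) and with legacy=FALSE. At 72 h they numbered 535 with DESeq2, 4 with limma-voom, 42 without the filter, 1 with the stricter filter, 5 with legacy=FALSE, 323 with the time fitted alone and 724 with a replicate block for each experiment and time together. The 10 genes gave 4, 0, 1, 0, 0, 3 and 4 calls in these fits. Over both times, where 6 genes were higher and 7 lower, RLE factors gave 25 calls (6 higher, 19 lower), DESeq2 733, limma-voom 92, no filter 123, the stricter filter 93, legacy=FALSE 79, the block for each experiment and time 1124 and no replicate block 0, with 1, 2, 1, 2, 1, 1, 3 and 0 of the 10 genes. Over time in Gl2-KD the counts were 1298 with DESeq2, 482 with limma-voom, 476 with the stricter filter, 624 with legacy=FALSE and 0 with no replicate block. The 10 genes gave 5, 2, 2, 2 and 0 calls in these fits. Without the filter 2 of the 10 were called, against 420 of all 29168 genes (1.44%). Over time in Srrm2-KD they were 1053 with DESeq2 (1 of the 10), 259 with limma-voom, 212 without the filter, 176 with the stricter filter, 279 with legacy=FALSE and 0 with no replicate block. The difference between the effects had 2 calls with DESeq2 and 1 without the filter. All these fits tested 19410 genes, except for 29168 without the filter and 14895 with the stricter filter. With a time fitted alone the numbers were 18132 at 24 h and 18156 at 72 h.

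Leaving out 1 library or experiment gave 0 to 10 calls at 24 h, 0 to 55 at 72 h, 0 to 288 over both times, 0 to 387 over time in Gl2-KD, 0 to 135 in Srrm2-KD and 0 to 2 for the difference, with 0, 0 to 1, 0 to 2, 0 to 2, 0 and 0 of the 10 genes. The highest count over both times came without the Srrm2-KD library of experiment 1 at 24 h. Dtx3 and Hes1 then passed (adjusted p = 0.00171 and 0.0240, edgeR).

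Signs changed only for values with no call. Notch1 at 24 h was 0.0195 with no replicate block. Notch2 over both times was 0.0018 with DESeq2, 0.00197 with RLE factors, 0.00241 with no filter, 0.00386 with the stricter filter, 0.00338 with legacy=FALSE, 0.0224 with limma-voom and 0.0364 with no replicate block. The difference for Dtx2 was 0.0116 with DESeq2, 0.00959 with limma-voom, 0.0114 with RLE factors, 0.00777 with the stricter filter, 0.00338 with no replicate block and 0.000322 with legacy=FALSE. With 1 library or experiment left out, values at 24 h ran from -0.132 to 0.0861 for Dtx1, -0.209 to 0.0888 for Dtx2, -0.113 to 0.51 for Dtx3l, -0.298 to 0.104 for Dtx4, -0.151 to 0.132 for Notch1, -0.00437 to 0.241 for Notch2, -0.102 to 0.204 for Notch3 and -0.148 to 0.0429 for Rbpj. At 72 h they ran from -0.203 to 0.0105 for Dtx2 and -0.287 to 0.065 for Notch2, and over both times from -0.156 to 0.00392 for Dtx2, -0.0864 to 0.0907 for Notch2, -0.196 to 0.00262 for Notch3 and -0.00364 to 0.127 for Rbpj. Over time in Gl2-KD they ran from -0.286 to 0.0151 for Dtx2, -0.321 to 0.135 for Dtx4 and -0.275 to 0.103 for Notch2, in Srrm2-KD from -0.126 to 0.306 for Notch1, and for the difference from -0.17 to 0.118 for Dtx2 and -0.376 to 0.0123 for Dtx3. Of 2001 values of single genes under an alternative, 1824 kept their sign and side of the threshold, 86 passed it, 22 lost it and 69 changed sign.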
